A study of Mus musculus with 16 samples.

Results

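Hba-a2, Hbb-bs, Hbb-bt, Slc4a1 and Car2 are 5 genes of the red blood cell among the 12012 genes in the deposited table of a ribosome profiling study of mouse leukaemia. They were chosen by name after earlier results of these data were known. The values behind that choice were the low total RNA and footprint levels of the valine-free diet against the control diet. This contrast is thus given here as a description, and nothing is read from its test counts. No threshold was applied.

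The leukaemic cells grew in C57BL/6 mice that had received, as a second passage, T-ALL (T cell acute lymphoblastic leukaemia) cells made leukaemic by NOTCH-ΔE, a Notch receptor in its active form. All groups shared this leukaemia and the host strain. Mice ate diets with 0, 0.4 or 0.8 g/kg valine, or a control diet with 8 g/kg, for 3 weeks before GFP-positive leukaemic cells were sorted from the spleen. The doses are those of the sample characteristics; by the treatment protocol, valine at the 2 intermediate doses was given in drinking water. Total RNA and RPF (ribosome-protected fragments, pieces of mRNA covered by a ribosome during nuclease digestion) were sequenced in 2 libraries for each diet, one per T-ALL number (2 and 3). Whether a number stands for a tumour or a mouse is not stated, so p-values describe the spread between these libraries, which may be technical.

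Haemoglobin is a tetramer of α- and β-globin chains, each carrying a haem group that binds oxygen. Red cell precursors fill with globin mRNA as they mature, and the young red cell keeps that mRNA and its ribosomes for a time after the nucleus is lost. In mice the spleen is a site of red cell production as well as of red cell removal. Slc4a1 encodes band 3, the chloride and bicarbonate exchanger of the red cell membrane, and Car2 encodes carbonic anhydrase 2, which interconverts carbon dioxide and bicarbonate and is made in many other cell types too.

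By the RefSeq annotation of GRCm38.p6 the 5 genes lie on 3 chromosomes. Hba-a2, an adult α-globin gene, lies at chr11:32296492-32297310. Hbb-bs and Hbb-bt, the pair of adult β-globin genes of the haplotype that C57BL mice carry, lie at chr7:103826523-103827928 and chr7:103812524-103813923. Slc4a1 lies at chr11:102348820-102365281 and Car2 at chr3:14886269-14900770.

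The stretches of 250 bases before the annotated start of the 3 globin genes show how alike these genes are and what their promoters share. They are from RefSeq (GRCm38.p6), at chr11:32296242-32296491 on the plus strand, chr7:103827929-103828178 on the minus strand and chr7:103813924-103814173 on the minus strand. Capitals mark, on either strand, the word GATAA, the word CACCC, the word CCAAT and the word TATAA.
Hba-a2: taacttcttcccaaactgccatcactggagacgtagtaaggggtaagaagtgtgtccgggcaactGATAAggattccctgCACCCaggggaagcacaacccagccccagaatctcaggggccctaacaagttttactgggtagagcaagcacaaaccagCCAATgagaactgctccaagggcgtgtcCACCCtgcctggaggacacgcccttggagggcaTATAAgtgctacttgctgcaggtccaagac
Hbb-bs: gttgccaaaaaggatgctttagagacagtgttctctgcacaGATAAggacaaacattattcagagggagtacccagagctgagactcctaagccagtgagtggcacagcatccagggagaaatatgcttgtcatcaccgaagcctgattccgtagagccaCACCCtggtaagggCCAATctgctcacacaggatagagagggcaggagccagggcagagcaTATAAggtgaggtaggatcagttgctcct
Hbb-bt: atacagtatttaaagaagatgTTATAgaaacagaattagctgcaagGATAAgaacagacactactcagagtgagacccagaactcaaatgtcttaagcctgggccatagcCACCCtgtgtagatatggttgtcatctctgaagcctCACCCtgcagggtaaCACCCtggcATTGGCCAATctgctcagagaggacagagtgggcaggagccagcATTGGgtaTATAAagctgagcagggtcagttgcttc
Each of the 3 stretches held all 4 words. In Hba-a2 they began 185 bases (GATAA), 170 and 63 bases (CACCC), 91 bases (CCAAT) and 30 bases (TATAA) before the start. In Hbb-bs they began 209, 90, 76 and 29 bases before it in the same order of words. In Hbb-bt GATAA began 204 bases before the start and the nearest TATAA 28 bases before it. One CCAAT of Hbb-bt is adjoined by its reverse complement, so 2 of its 3 matches are neighbours. Among 32851 promoter stretches of the same length, GATAA was present in 22.6%, CACCC in 52%, CCAAT in 33.9% and TATAA in 22.8%. The words were picked as those known from globin promoters, and a match is a description of the sequence and not of a bound factor.

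The promoter of Hba-a1, the second adult α-globin gene (chr11:32283672-32284486), was the same as that of Hba-a2 over all 247 bases that aligned. The Hbb-bs and Hbb-bt stretches were identical at 185 of 239 aligned bases, or 77.4%. The transcribed parts of such copies are also close to each other, and the labels and the table do not state how reads that match several genes were assigned. The split of reads between Hba-a2 and Hba-a1, and between Hbb-bs and Hbb-bt, is therefore uncertain.

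The table gives FPKM, which scales reads by gene length and library size, and whole reads per gene were recovered from the steps of these values. Recovered reads ranged from 41848 to 205545 in RPF libraries and from 364685 to 1269364 in total RNA libraries. The 5 genes together had 316 reads in RPF and 833 in total RNA, so counting error is large for most of them. A count of 0 was read as at most 3 reads, a share of up to 0.00146% to 0.00717% of reads in RPF and 0.000236% to 0.000823% in total RNA. Intervals and floors cover counting error alone, as PCR copies are not independent molecules. The T cell markers fitted the label of the sort: all 12 were in the table, and they made up 24.2 to 37.7 of every 10000 total RNA reads.

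**Figure D1:**
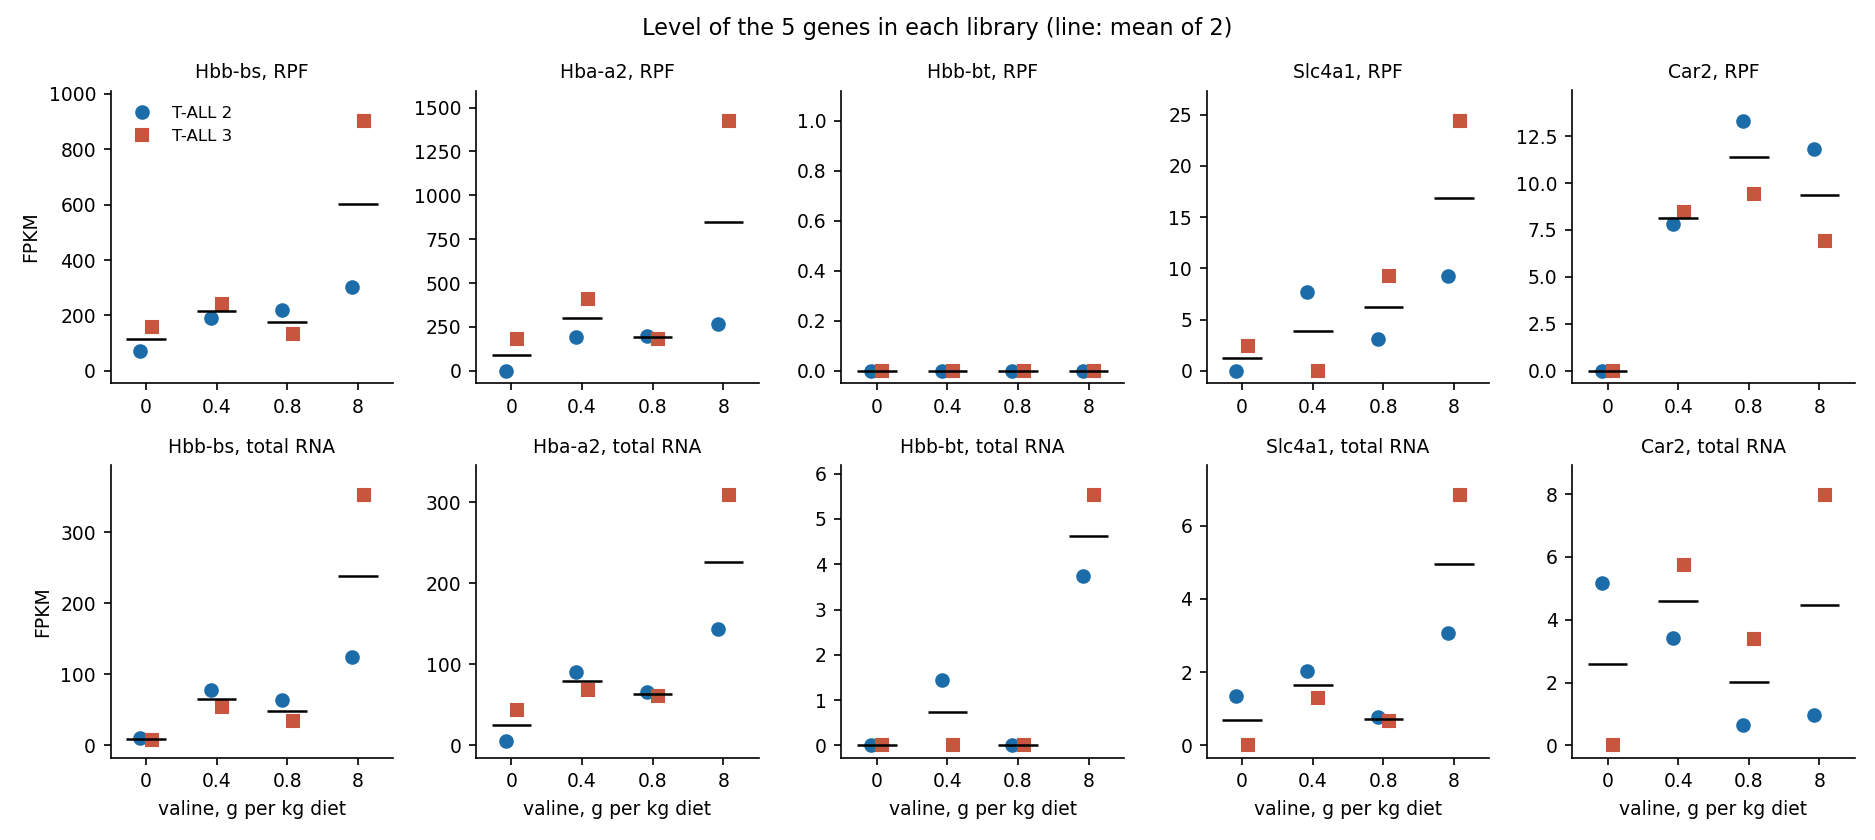
FPKM of each gene (columns) in RPF (upper row) and total RNA (lower row) against dietary valine in g per kg, with T-ALL 2 as circles, T-ALL 3 as squares and the mean of 2 libraries as a line. Hbb-bs and Hba-a2 sit highest at 8 g/kg within each T-ALL number, whereas Car2 in total RNA has no such order.

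In total RNA, Hbb-bs and Hba-a2 were lowest on the valine-free diet and highest on the control diet, with the intermediate diets between them. Hbb-bs was the β-globin gene with more reads assigned. It had 9.84 and 7.68 FPKM (T-ALL 2, then T-ALL 3) at 0 g/kg and 78.1 and 53.6 at 0.4 g/kg. At 0.8 g/kg it had 64.1 and 33.9 FPKM, and at 8 g/kg 124 and 353. These are means of 8.76 ± 1.53, 65.9 ± 17.3, 49.0 ± 21.4 and 238 ± 162 FPKM (SD, n = 2 each). The 0 g/kg libraries lay below all others, the 0.4 and 0.8 g/kg libraries overlapped, and both lay below the control libraries. The control mean rests largely on its T-ALL 3 library, which held 171 of the 260 Hbb-bs control reads.

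The α-globin Hba-a2 followed the same order of diets. It had 5.57 and 43.5 FPKM at 0 g/kg, 90.3 and 68.7 at 0.4 g/kg, 66.2 and 60.4 at 0.8 g/kg, and 144 and 309 at 8 g/kg. Neighbouring diets did not overlap in this order, although the 0.4 and 0.8 g/kg ranges came close. At 0 g/kg the T-ALL 2 value rests on 2 reads and the T-ALL 3 value on 10 reads.

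Hbb-bt, the other member of the β pair, had few reads assigned to it. It had 0 reads in both 0 g/kg and both 0.8 g/kg libraries, 1 and 0 reads at 0.4 g/kg, and 3 and 3 reads at 8 g/kg (3.73 and 5.53 FPKM). A bound was set with 0 read as up to 3 reads over the group and the 6 control reads taken as exact. Hbb-bt was then at least 1.07-fold lower at 0 g/kg and at least 1.21-fold lower at 0.8 g/kg than at 8 g/kg. Counting error on the control reads is left out, so the depth allows almost no statement on the size or direction of its difference.

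Slc4a1 was low everywhere and highest on the control diet. Band 3 mRNA stood at 1.36 and 0 FPKM at 0 g/kg, 2.02 and 1.29 at 0.4 g/kg, 0.781 and 0.669 at 0.8 g/kg, and 3.08 and 6.84 at 8 g/kg. The control libraries had 16 and 24 reads and no other library more than 9. The 0 and 0.8 g/kg ranges overlapped.

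Car2 did not share this order. It had 5.18 and 0 FPKM at 0 g/kg, 3.43 and 5.73 at 0.4 g/kg, 0.662 and 3.40 at 0.8 g/kg, and 0.978 and 7.97 at 8 g/kg, and every neighbouring pair of diets overlapped. No diet stood apart from the others.

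Summed over the 2 libraries of a diet, the share of reads on a gene can be set against the control with a counting interval. At 0 g/kg the Hbb-bs share was 4.31% of that at 8 g/kg (95% exact interval 1.57% to 9.51%, 6 against 260 reads). For Hba-a2 it was 10.1% (5.11% to 17.9%, 12 against 223 reads), and for Slc4a1 18.7% (4.85% to 51.7%, 4 against 40 reads). For Car2 it was 86.2% (26.9% to 243%, 6 against 13 reads), an interval that includes no difference. These intervals leave out the spread between libraries.

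At the intermediate doses the same shares were larger. At 0.4 g/kg Hbb-bs was at 31.6% of the control share (23.9% to 41.2%) and Hba-a2 at 38.9% (29.5% to 50.7%). At 0.8 g/kg Hbb-bs was at 26.1% (18.3% to 36.3%) and Hba-a2 at 31.1% (21.8% to 43.4%). In total RNA both intermediate doses thus held more globin reads per library than the valine-free diet and fewer than the control.

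Fitted with limma on log2(FPKM + 0.5), the total RNA difference at 0 against 8 g/kg was -4.51 ± 0.48 (SE) for Hbb-bs, -3.69 ± 0.76 for Hba-a2, -3.34 ± 0.98 for Hbb-bt, -2.41 ± 0.81 for Slc4a1 and -1.07 ± 1.24 for Car2. The pseudocount of 0.5 understates the difference of low genes. Both 0 g/kg libraries lay below both control libraries for 4 of the 5 genes, all but Car2, and for 20.3% of all 10054 genes tested. At an unadjusted p under 0.05, 4 of 5 were lower against a background of 4.02%, and at an adjusted p under 0.05 limma called 0 of 5 and 0% of all genes, with 404 genes lower and 258 higher at the unadjusted threshold. Voom on the recovered reads called 0 of 5 and 0.0298% of genes. The members were chosen on this contrast, so nothing is read from these counts. In bulk samples, fewer cells of a type and less RNA per cell cannot be told apart.

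The intermediate diets share their 2 control libraries with the valine-free comparison and with each other. At 0.4 g/kg the log2 differences from 8 g/kg were -1.68 ± 0.48 for Hbb-bs, -1.41 ± 0.76 for Hba-a2, -2.35 ± 0.98 for Hbb-bt, -1.27 ± 0.81 for Slc4a1 and 0.48 ± 1.24 for Car2. At 0.8 g/kg they were -2.15 ± 0.48, -1.73 ± 0.76, -3.34 ± 0.98, -2.07 ± 0.81 and -0.73 ± 1.24 in the same order of genes. Without the T-ALL 3 control library, the Hbb-bs difference was -3.76 on the valine-free diet, -0.93 with 0.4 g/kg and -1.40 with 0.8 g/kg. For Hba-a2 it was then -3.14, -0.86 and -1.18. Again 4 of 5 genes lay below both control libraries in each, with 19% and 17.8% of all genes doing so at 0.4 and 0.8 g/kg. At an unadjusted p under 0.05, 2 of 5 were lower at 0.4 g/kg (Hbb-bs and Hbb-bt, background 1.5%) and 3 of 5 at 0.8 g/kg (Hbb-bs, Hbb-bt and Slc4a1, background 2.14%). At an adjusted p under 0.05, limma and voom each called 0 of 5 and 0% of all genes in both. The control libraries of these counts are those the genes were chosen on, and Hbb-bt passed the filter mainly through them, so nothing is read from the counts.

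**Figure D2:**
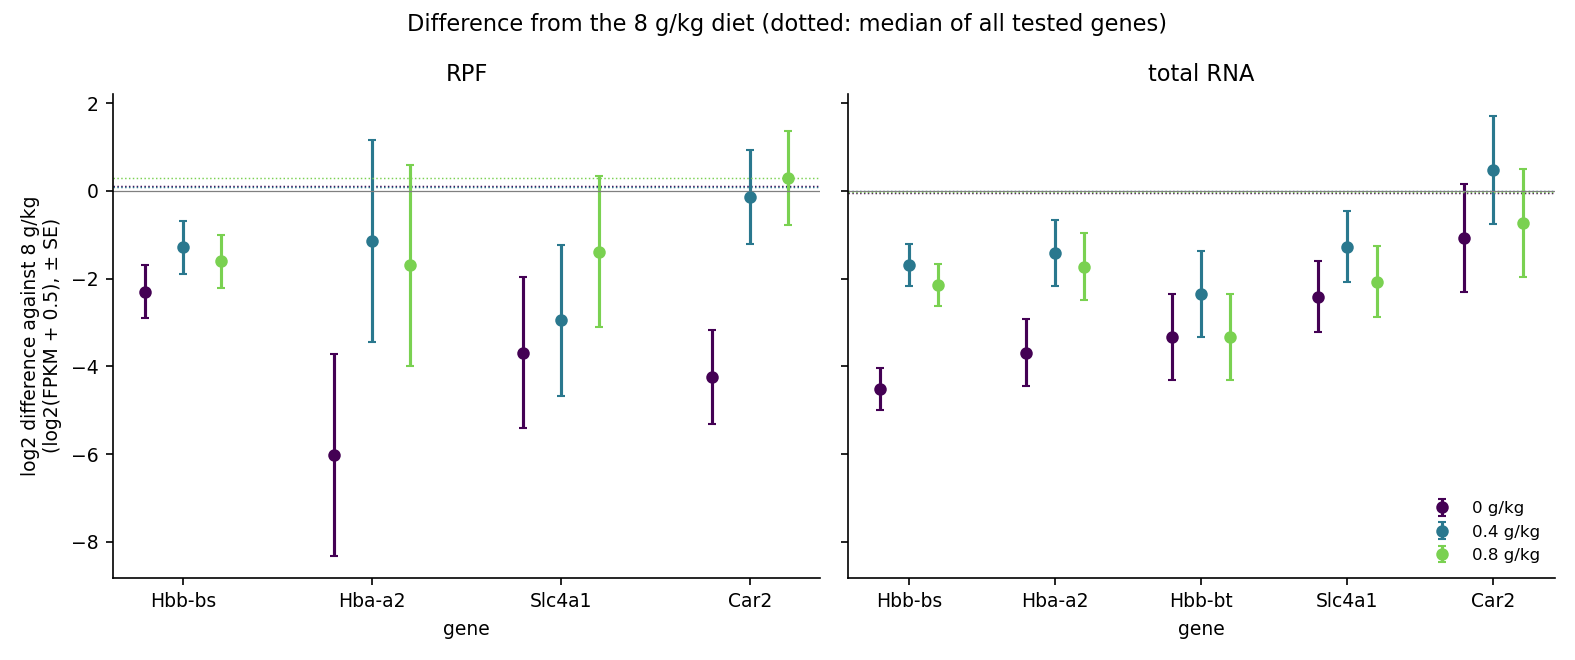
Log2 difference (log2(FPKM + 0.5), ± SE of the limma fit) of each gene from the 8 g/kg diet, for 0, 0.4 and 0.8 g/kg, in RPF (left) and total RNA (right), with the median of all tested genes as dotted lines. In total RNA the 3 globins and Slc4a1 lie between -1.27 and -4.51 at all doses, and the Car2 error bars are wider than most of its differences.

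The intermediate diets can be compared with each other without the contrast that chose the genes. In total RNA at 0.4 against 0.8 g/kg, Hbb-bs differed by 0.47 ± 0.48, Hba-a2 by 0.32 ± 0.76, Hbb-bt by 0.98 ± 0.98, Slc4a1 by 0.80 ± 0.81 and Car2 by 1.22 ± 1.24 on the log2 scale. All 5 were higher at 0.4 g/kg, by no more than about their SE, where 47.0% of all genes were lower. The Hbb-bt value rests on 1 read at 0.4 g/kg and 0 at 0.8 g/kg, and this gene passed the filter mainly through the control libraries. Limma called 0 of 5 (adjusted p = 1 for each) and 0% of all genes, voom likewise 0 of 5 and 0%, and 0 of 5 passed an unadjusted p under 0.05, which 3.13% of genes did. A difference between 0.4 and 0.8 g/kg was not detectable with 2 libraries each.

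In RPF the β-globin had its lowest mean at 0 g/kg and its highest at 8 g/kg. Hbb-bs had 70.7 and 159 FPKM at 0 g/kg (4 and 9 reads), 190 and 241 at 0.4 g/kg (17 and 10 reads), 220 and 134 at 0.8 g/kg (29 and 10 reads), and 302 and 904 at 8 g/kg (9 and 46 reads). The control libraries lay above all others, the 0.8 g/kg range overlapped those of 0 and 0.4 g/kg, and the 0 and 0.4 g/kg ranges did not overlap. The T-ALL 3 control library was again the highest.

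Hba-a2 footprints numbered 0 and 9 reads at 0 g/kg (0 and 180 FPKM), 15 and 15 at 0.4 g/kg (190 and 410 FPKM), 23 and 12 at 0.8 g/kg (198 and 182 FPKM), and 7 and 64 at 8 g/kg (266 and 1426 FPKM). The 0.4 g/kg range overlapped that of the control diet. The library with 0 reads, 0 g/kg T-ALL 2, also had the lowest Hba-a2 level in total RNA.

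Hbb-bt had 0 reads in all 8 RPF libraries and was not tested there. Slc4a1 footprints came to 0 and 1 reads on 0 g/kg, 5 and 0 at 0.4 g/kg, 3 and 5 at 0.8 g/kg, and 2 and 9 at 8 g/kg. Car2 had no footprint in either 0 g/kg library, 2 and 1 at 0.4 g/kg, 5 and 2 at 0.8 g/kg, and 1 and 1 at 8 g/kg. These counts are too few to order the diets for either gene.

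The log2 differences in RPF at 0 against 8 g/kg were -2.3 ± 0.60 for Hbb-bs, -6.02 ± 2.3 for Hba-a2, -3.69 ± 1.72 for Slc4a1 and -4.25 ± 1.07 for Car2. Those of the last 3 depend on the pseudocount, since at least 1 library had 0 reads. From summed reads, the Hbb-bs share at 0 g/kg was 16.8% of the control share (8.41% to 31.1%, 13 against 55 reads) and that of Hba-a2 9.0% (3.96% to 18.1%, 9 against 71 reads). Both 0 g/kg libraries lay below both control libraries for 4 of the 4 genes tested, against 11.7% of 9718 genes, and 3 of 4 were lower at an unadjusted p under 0.05, against 2.22%. At an adjusted p under 0.05 limma called 0 of 4 and 0% of genes, whereas voom called 1 of 4, Hba-a2, and 0.0617% of genes. The genes were chosen on this contrast too, so nothing is read from these counts. Without the 0 g/kg T-ALL 2 library the difference was -1.78 for Hba-a2 and -2.41 for Slc4a1, and without the 0 g/kg T-ALL 3 library -10.27 and -4.96.

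Against the same control libraries, the 0.4 g/kg RPF differences were -1.29 ± 0.60 for Hbb-bs, -1.14 ± 2.3 for Hba-a2, -2.95 ± 1.72 for Slc4a1 and -0.14 ± 1.07 for Car2. At 0.8 g/kg they were -1.60 ± 0.60, -1.70 ± 2.3, -1.39 ± 1.72 and 0.29 ± 1.07. Without the T-ALL 3 control library the Hba-a2 difference was 0.07 with 0.4 g/kg and -0.49 with 0.8 g/kg, and that of Hbb-bs -0.50 and -0.81. Both libraries lay below both controls for 2 of 4 genes at 0.4 g/kg (Hbb-bs and Slc4a1, background 12.7%) and for 3 of 4 at 0.8 g/kg (Hbb-bs, Hba-a2 and Slc4a1, background 9.82%). At an unadjusted p under 0.05, 0 of 4 were lower at 0.4 g/kg, where 2.49% of genes were, and 1 of 4 (Hbb-bs) at 0.8 g/kg, where 0.854% were. Limma and voom each called 0 of 4 and 0% of genes at an adjusted p under 0.05 for both doses. Here too the control libraries are those behind the choice of genes, and nothing is read from the counts.

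At 0.4 against 0.8 g/kg in RPF, Hbb-bs differed by 0.32 ± 0.60, Hba-a2 by 0.55 ± 2.3, Slc4a1 by -1.56 ± 1.72 and Car2 by -0.44 ± 1.07. Limma called 0 of 4 (adjusted p = 1 for each) and 0% of genes, voom 0 of 4 and 0%, and 0 of 4 passed an unadjusted p under 0.05 where 3.19% of genes did. The 2 globins and the 2 other genes differed in sign, all within 1 SE of 0.

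Over all 8 libraries of a fraction, Hba-a2 and Hbb-bs had similar numbers of reads. The shares below are not scaled by gene length and leave out Hba-a1 and Hbb-bt. They also depend on how reads that match several copies were assigned, which is not stated. Hba-a2 made up 52% of Hba-a2 and Hbb-bs reads in RPF (95% exact interval 45.9% to 58.0%, 145 of 279 reads) and 48.2% in total RNA (44.5% to 51.9%, 352 of 730 reads), each over all 8 libraries. By library, the share in total RNA was 33.3% and 83.3% at 0 g/kg (2 of 6 and 10 of 12 reads), 50.5% and 53.1% at 0.4 g/kg, 47.7% and 61.1% at 0.8 g/kg, and 50.6% and 43.6% at 8 g/kg. In RPF it was 0% and 50% at 0 g/kg (0 of 4 and 9 of 18 reads), 46.9% and 60% at 0.4 g/kg, 44.2% and 54.5% at 0.8 g/kg, and 43.8% and 58.2% at 8 g/kg. The 0 g/kg libraries span almost the whole range, on 4 to 18 reads each, and the other 12 libraries lie between 43.6% and 61.1%.

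Few reads were assigned to Hba-a1 and Hbb-bt. How reads that match several copies were assigned is not stated, and the intervals do not cover this. Hba-a1 held 3.33% of α-globin reads in RPF (1.09% to 7.61%, 5 of 150 reads) and 4.61% in total RNA (2.71% to 7.27%, 17 of 369 reads). Hbb-bt held 0 of 134 β-globin reads in RPF, which the exact interval bounds at 2.72%, and 1.82% in total RNA (0.734% to 3.71%, 7 of 385 reads). Hba-a1 had 1 and 0 reads at 0 g/kg in total RNA, 2 and 0 at 0.4 g/kg, 2 and 0 at 0.8 g/kg, and 5 and 7 at 8 g/kg.

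The 2 T-ALL numbers were compared over all diets, a contrast that did not choose the genes. In total RNA at T-ALL 3 against T-ALL 2, Hba-a2 differed by 0.86 ± 0.46 (limma adjusted p = 0.727) and Hbb-bs by -0.07 ± 0.35 (adjusted p = 0.976) on the log2 scale. Hbb-bt differed by -0.36 ± 0.71, Slc4a1 by -0.37 ± 0.59 and Car2 by 0.36 ± 0.89. Limma called 0 of 5 and 0% of genes, and 0 of 5 passed an unadjusted p under 0.05, which 7.52% of genes did. Voom, which weights deep libraries more, called 0 of 5 and 0.676% of genes.

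In RPF at T-ALL 3 against T-ALL 2, Hba-a2 differed by 2.98 ± 1.28 (limma adjusted p = 0.82), Hbb-bs by 0.59 ± 0.39 (adjusted p = 0.833), Slc4a1 by 0.32 ± 1.3 and Car2 by -0.28 ± 0.82. Limma called 0 of 4 and 0% of genes, and 0 of 4 passed an unadjusted p under 0.05 against 5.4% of genes. Voom called 0 of 4 and 0.144% of genes. Without the 0 g/kg T-ALL 2 library, which had no Hba-a2 footprint, the Hba-a2 difference was 1.14.

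Matching RPF to total RNA libraries by diet and T-ALL number gave 8 pairs. Their difference asks whether a gene has many or few footprints for its RNA. The match by T-ALL number was weak: T-ALL 2 minus T-ALL 3 differences correlated between the fractions at 0.08 to 0.14 over 9361 genes. Hbb-bs had more footprint signal for its RNA than most genes in every pair. Its difference of log2(FPKM + 0.5), centred on the median gene of each pair, was 3.09 and 4.54 at 0 g/kg, 1.56 and 2.70 at 0.4 g/kg, 1.93 and 2.11 at 0.8 g/kg, and 1.84 and 1.78 at 8 g/kg. The mean was 2.44 ± 0.22 (SE, limma adjusted p = 0.00511), higher in RPF in 8 of 8 pairs. An exact two-sided sign-flip permutation test over the 8 pairs gave p = 0.0078, the smallest it can give, and the mean lay above that of 99.9% of 9361 genes. The 0 and 8 g/kg pairs are from the libraries whose values chose the genes, so these p-values are in part a description. The 2 highest differences are those at 0 g/kg, on 4 and 2 reads of total RNA. The 0.4 and 0.8 g/kg pairs, which did not choose the genes, lay between 1.56 and 2.70.

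The other 3 genes leaned the same way without a call. Hba-a2 had 1.37 ± 0.58 (limma adjusted p = 0.164, higher in 7 of 8 pairs), Slc4a1 1.37 ± 0.56 (adjusted p = 0.15, 6 of 8 pairs) and Car2 1.07 ± 0.53 (adjusted p = 0.213, 7 of 8 pairs). The exact permutation p-values of these 3 were 0.109, 0.0703 and 0.219 before any adjustment. Thus 1 of 4 genes was called, in the direction of RPF, where 11.1% of genes were called in either direction and 7.52% as higher in RPF. Before centring, the median over all genes was -0.26. The Hba-a2 value depends on the 0 g/kg pairs. In T-ALL 2 its difference at 0 g/kg was -3.29, from no footprint read and 2 reads of total RNA. The Hba-a2 mean was 2.07 without that pair and 0.67 without the 0 g/kg T-ALL 3 pair.

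**Figure D3:**
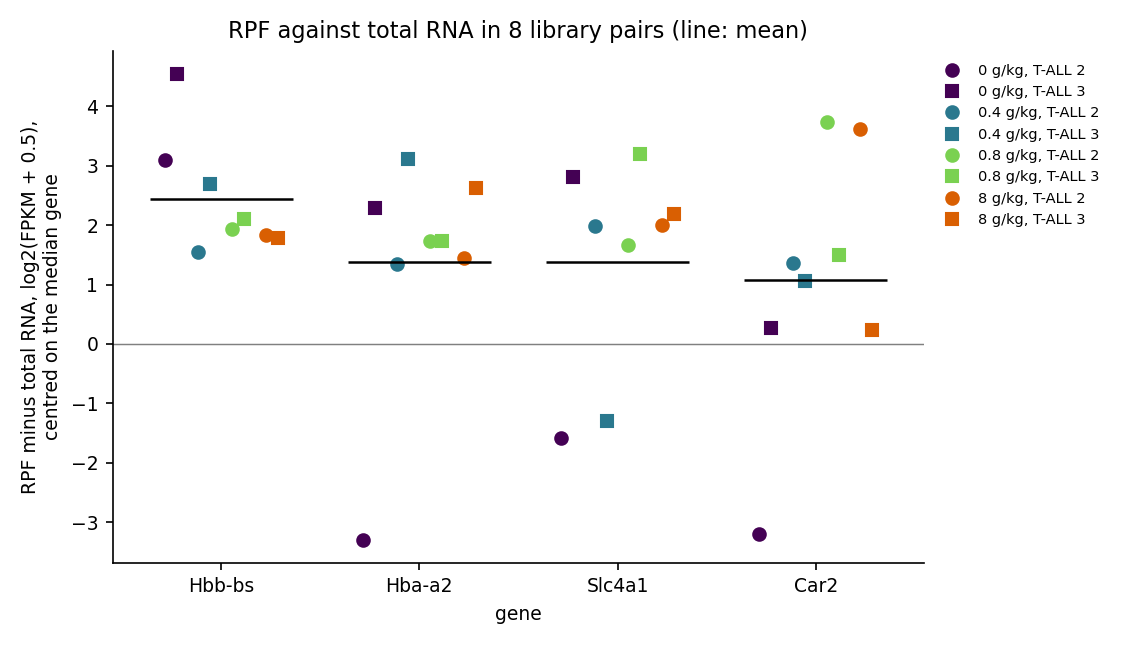
RPF minus total RNA in log2(FPKM + 0.5), centred on the median gene, for each of the 8 library pairs (colour: diet, circle: T-ALL 2, square: T-ALL 3) and their mean (line). All 8 Hbb-bs pairs lie above 0, between 1.56 and 4.54, and the lowest points of Hba-a2 and Car2 are both the 0 g/kg T-ALL 2 pair.

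RPF minus total RNA, here without centring on the median gene, was compared between diets as translational efficiency (TE). At 0 against 8 g/kg TE differed by 2.21 ± 0.61 for Hbb-bs, -2.33 ± 1.65 for Hba-a2, -1.28 ± 1.63 for Slc4a1 and -3.18 ± 1.48 for Car2, so the α- and β-globin values had opposite signs. The Hbb-bs value rests on 4 and 9 footprint reads beside 4 and 2 reads of total RNA on the valine-free diet. This contrast is built from values that chose the genes, so nothing is read from its counts. Limma called 0 of 4 and 0% of genes, and 1 of 4 passed an unadjusted p under 0.05 beside 6.58% of genes.

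At the intermediate doses the TE of the 2 globins was nearer to that of the control. At 0.4 against 8 g/kg TE differed by 0.40 ± 0.61 for Hbb-bs and 0.27 ± 1.65 for Hba-a2, and at 0.8 against 8 g/kg by 0.55 ± 0.61 and 0.03 ± 1.65. At the same doses Slc4a1 differed by -1.68 ± 1.63 and 0.68 ± 1.63, and Car2 by -0.63 ± 1.48 and 1.03 ± 1.48. Limma called 0 of 4 and 0% of genes in both, and 0 of 4 passed an unadjusted p under 0.05 beside 6.68% of genes at 0.4 g/kg and 6.23% at 0.8 g/kg. At 0.4 against 0.8 g/kg TE differed by -0.15 ± 0.61 for Hbb-bs, 0.24 ± 1.65 for Hba-a2, -2.35 ± 1.63 for Slc4a1 and -1.65 ± 1.48 for Car2 (limma adjusted p = 1 for each). With libraries centred on the median gene, the Hbb-bs value turned to 0.11. There limma called 0 of 4 and 0% of genes, and 0 of 4 passed an unadjusted p under 0.05 against 3.63%.

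All 8 listed haem synthesis genes were in the table, and at 0 against 8 g/kg 6 were lower and 2 higher in total RNA, with 0 called and a median of -0.20, beside -0.04 over all genes, of which 54.0% were lower. Urod, Alad and Fech, enzymes that every cell with mitochondria uses for haem, differed by -0.11 ± 0.28, 0.16 ± 0.23 and -0.17 ± 0.29. Alas2, the erythroid form of the first enzyme, had 0 and 0 reads on 0 g/kg, 1 and 4 at 0.4 g/kg, 1 and 2 at 0.8 g/kg, and 3 and 5 at 8 g/kg. It was added to the genes named by level because it is the erythroid member, after its values were seen.

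The other red cell lists had medians nearer to 0 than the globins. Of 15 listed genes of the red cell membrane and skeleton other than Slc4a1, 14 were in the table and 3 passed the filter in total RNA. Of these, 3 were lower and 0 higher at 0 against 8 g/kg, with a median of -0.34. The most abundant was Epb41, a skeleton protein that many cells make, at -0.25 ± 0.23. Gypc, encoding glycophorin C, was at -0.34 ± 0.48. Aqp1, the water channel of the red cell membrane, missed the filter, with 1 and 0 reads on 0 g/kg, 2 and 0 at 0.4 g/kg, 1 and 0 at 0.8 g/kg, and 4 and 8 at 8 g/kg.

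Of 7 listed erythroid transcription factors, 4 passed the filter in total RNA, 3 lower and 1 higher at 0 against 8 g/kg, with a median of -0.14. Zfpm1, the GATA cofactor also called FOG1, had the highest mean level of them, 43.3 FPKM, and a log2 difference of -0.05 ± 0.38, and Lmo2, an adaptor of the GATA1 complex, was at 1.47 ± 0.95. Gata1 was at -0.22 ± 1.16 and Klf1 at -1.53 ± 1.15, on few reads. As Klf1 passed the filter mainly through the control libraries, the sign of its difference was in part set by the filter. Gata1, the master regulator of red cell genes, had 4 and 2 reads on 0 g/kg, 4 and 3 at 0.4 g/kg, 0 and 5 at 0.8 g/kg, and 4 and 9 at 8 g/kg. Klf1, which activates adult β-globin, had 2 and 0, 3 and 0, 0 and 0, and 3 and 5 reads at the same doses. For both genes the 0 and 8 g/kg ranges overlapped.

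Of 18 listed red cell enzymes and late erythroid genes, 13 passed the filter, 8 lower and 5 higher, with a median of -0.21. Gpx1, Prdx2 and Cat, which remove peroxides, differed by 0.12 ± 0.14, 0.05 ± 0.19 and -0.30 ± 0.18, and the transferrin receptor Tfrc by -0.70 ± 0.34. These genes are also active in dividing T cells. Of the other carbonic anhydrases 2 passed, Car1 at -0.62 ± 1.41 and Car12 at 0.51 ± 0.67, and of the other SLC4 transporters Slc4a2 was at -0.08 ± 0.31 and Slc4a7 at 0.42 ± 0.41. The 1 further globin gene in the table, Hba-a1, was at -3.04 ± 1.3. Limma called 0 genes of any of these lists in this comparison, at an adjusted p under 0.05.

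Markers of other blood cells were set beside the red cell genes, as the sorted cells could hold some. The 11 neutrophil markers, all in the table, made up, per 10000 reads of total RNA, 4.72 and 2.22 at 0 g/kg, 0.333 and 0.723 at 0.4 g/kg, 0.273 and 0.110 at 0.8 g/kg, and 0.181 and 0.166 at 8 g/kg. The 5 red cell genes made up 0.227 and 0.280 at 0 g/kg, 1.04 and 0.803 at 0.4 g/kg, 0.753 and 0.576 at 0.8 g/kg, and 1.58 and 4.03 at 8 g/kg. The 0 g/kg libraries thus had the most neutrophil and the fewest red cell reads. At 0 against 8 g/kg 11 of 11 neutrophil markers were higher, with a median of 4.05 and 0 called. S100a9, a calcium-binding protein of neutrophils, had 286 and 135 FPKM at 0 g/kg, against 13.5 and 22.5 FPKM at 8 g/kg. The part of the cell mixture in the red cell values was not tested.

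In RPF the neutrophil markers made up 27.6 and 3.41 of every 10000 reads on 0 g/kg, 0.427 and 1.2 at 0.4 g/kg, 0.389 and 0.608 at 0.8 g/kg, and 0.239 and 0.420 at 8 g/kg, where 8 of the 11 markers were at 0 in both control libraries. The red cell genes made up 0.498 and 2.40 at 0 g/kg, 2.77 and 4.44 at 0.4 g/kg, 2.92 and 2.52 at 0.8 g/kg, and 4.54 and 16.8 at 8 g/kg. The RPF library with the most neutrophil reads, 0 g/kg T-ALL 2, had the fewest red cell reads.

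**Figure D4:**
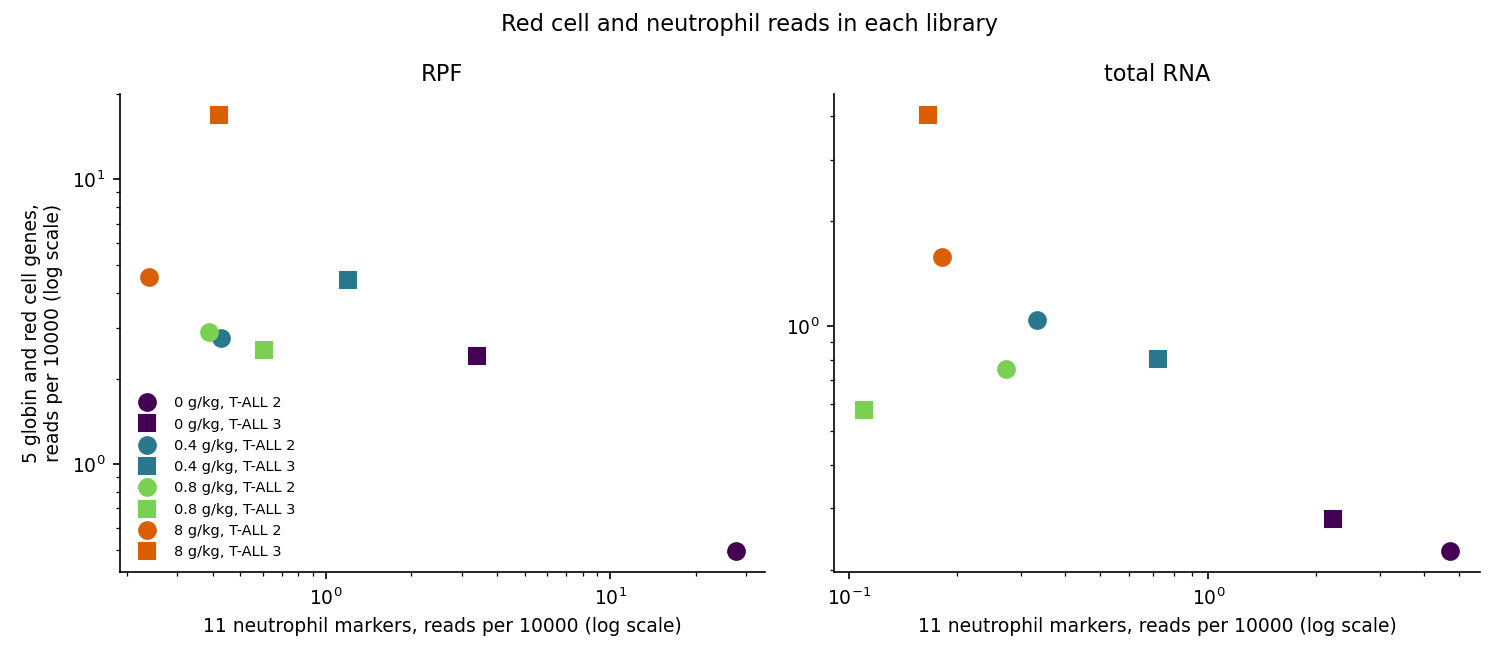
Summed reads of the 5 globin and red cell genes against those of 11 neutrophil markers, both per 10000 reads of the library on log scales, in RPF (left) and total RNA (right), with colour for diet, circles for T-ALL 2 and squares for T-ALL 3. The 0 g/kg libraries lie at the right, and the control T-ALL 3 library at the top with 16.8 red cell reads per 10000 in RPF and 4.03 in total RNA.

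Red pulp macrophages take up old red cells in the spleen, and their 9 markers made up 0.110 to 0.201 of every 10000 total RNA reads with all diets overlapping. At 0 against 8 g/kg 2 were lower and 3 higher of the 5 that passed the filter, with a median of 0.01. The haem-degrading enzyme Hmox1 had 1 and 3 reads on the valine-free diet, against 2 and 5 on the control diet. Per 10000 reads of RPF, the 9 markers made up 2.49 and 0.884 at 0 g/kg and 0.711 and 0.342 at 0.4 g/kg. They made up 1.07 and 0.868 at 0.8 g/kg and 0.956 and 3.08 at 8 g/kg, so the 0.4 g/kg libraries were the lowest. Platelet markers were represented by Itga2b alone, 1 of 6 listed, with 2 libraries above 0 in total RNA. Of 5 B cell markers 2 were in the table, Cd79b at 0 in all total RNA libraries and Cd22 at 3.89 and 17 FPKM at 0 g/kg, against 1.1 and 1.3 FPKM at 8 g/kg. The natural killer list, 4 of 6 in the table, was led by Gzma at 670 and 437 FPKM at 0 g/kg, against 627 and 521 FPKM at 8 g/kg. T cell markers were lower for 10 and higher for 2 of 12, with a median of -0.20.

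Genes whose total RNA pattern was most like the mean of the 3 globins were found by Pearson correlation of log2(FPKM + 0.5) over the 8 libraries, given as a description because libraries share depth and diet. The 5 most alike were Ap4e1 (r = 0.971), Tmod3 (0.963), Nat2 (0.938), Ubxn6 (0.930) and Thumpd3 (0.928). Their ranges were much narrower than those of the globins. Tmod3, which caps actin filaments, had 19.4 and 20.9 FPKM at 0 g/kg, against 26.2 and 25.7 FPKM at 8 g/kg. Ap4e1, a subunit of an adaptor complex for vesicle transport, had 4.36 and 5.24 FPKM at 0 g/kg, against 8.18 and 8.17 FPKM at 8 g/kg. Slc4a1 had r = 0.796 and Car2 r = 0.254, and 15 of 10054 genes reached 0.9.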

How the data were processed

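Total RNA and RPF of sorted leukaemic cells were analysed from 1 table of 16 libraries. The authors deposited FPKM values per gene and library. Per the submitters' processing notes, the builds were mm10 and GRCm38 and the tools STAR 2.5.0c, Bowtie2 2.3.4, edgeR 3.14.0 and cutadapt 1.18. Their roles, the read counting and the gene filter were not stated. Reads per gene were recovered from the FPKM steps, and 100% of 149988 nonzero values came out whole, with a tolerance of 0.0002 reads. The tests, two-sided, were made on log2(FPKM + 0.5) by limma 3.58.1 (R 4.3.3), separately for RPF and total RNA, on genes whose mean FPKM reached 1. Diet was the factor, the 8 libraries of a fraction entered together, and p-values were adjusted over every gene in the fit (Benjamini-Hochberg, 0.05). TE was fitted on the 8 RPF minus total RNA differences. Recovered reads entered limma's voom as an alternative. The T-ALL number was not used as a pairing across diets. The reason was that correlations of same-numbered deviations ranged from -0.04 to 0.25 and fell short of 0.1 for some pairs of diets. The 5 genes, the 7 pathway lists and the 6 marker lists were chosen with earlier results of these data known. Up to 4 genes of each list were named by mean total RNA level (1 of them is not reported here), and the 5 most alike by correlation. The fits and the recovery were tested on simulated data. An exact test of 2 against 2 libraries cannot go below 0.333 and was not run.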

Additional observations from a re-analysis of the deposited data

Results flagged for a closer look

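Car2 differed from the control in opposite directions in T-ALL 2 and T-ALL 3 in 3 of its 6 comparisons with 8 g/kg, which was not tested. In the other 3, 0.8 g/kg in total RNA and 0 and 0.8 g/kg in RPF, both T-ALL numbers lay on the same side. In total RNA its log2 difference at 0 against 8 g/kg was 1.94 in T-ALL 2 and -4.08 in T-ALL 3, on 6 against 2 reads and 0 against 11 reads. At 0.4 against 8 g/kg in total RNA it was 1.41 in T-ALL 2 and -0.44 in T-ALL 3. At 0.4 against 8 g/kg in RPF it was -0.56 in T-ALL 2 and 0.28 in T-ALL 3, on 1 or 2 reads per library.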

How the results depend on the processing

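Depth is the main limit: most values rest on few reads, with 2 libraries per diet and 1 control library (T-ALL 3) holding more globin reads than any other of its fraction. Among alternative values for single genes, 52 moved and 29 reversed. The number of genes called at 0 against 8 g/kg in total RNA went between 0 and 1 when 1 library was left out (the lone library of a diet is then assumed to vary like the others), in RPF it was 1 with voom, and for RPF against total RNA it lay between 1 and 2 when 1 pair was left out. The Hbb-bs difference in RPF against total RNA stayed above 0 under all 12 alternatives, between 2.11 and 2.62. Each alternative kept pairs of 0 and 8 g/kg, whose values chose the genes, so this range is a description. With the T-ALL number as a replicate block, which changed no call, Hbb-bs at 0 against 8 g/kg in total RNA stayed at -4.51 ± 0.49. Hbb-bs at 0 against 8 g/kg in total RNA lay between -5.26 and -3.76 when 1 library was left out. With voom, T-ALL 3 against T-ALL 2 in total RNA turned to 0.74 for Hbb-bs, 0.42 for Hbb-bt and 0.48 for Slc4a1; centring libraries on the median turned Hbb-bs TE at 0.4 against 0.8 g/kg to 0.11. Causes were not tested. Leaving out 1 library moved T-ALL 3 against T-ALL 2 in total RNA between -0.59 and 0.21 for Hbb-bs, -0.49 and 0.17 for Hbb-bt, -0.84 and 0.14 for Slc4a1 and -0.36 and 1.64 for Car2, and in RPF between -0.42 and 1.77 for Slc4a1. At 0.4 against 0.8 g/kg it moved RPF between -0.0012 and 1.11 for Hba-a2, -0.0422 and 0.68 for Hbb-bs and -3.58 and 0.46 for Slc4a1, and TE between -0.51 and 0.99 for Hba-a2 and -0.59 and 0.29 for Hbb-bs. Hbb-bt had no RPF read and thus no RPF or TE value under any alternative with the filter.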
